A study of Mus musculus with 6 samples.

Results

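Toll-like receptors are membrane proteins of innate immune cells that bind parts of microbes or nucleic acids and signal through the adaptors Myd88 and Ticam1. Some sit at the cell surface and bind lipids and lipopeptides, and others sit in endosomes and bind RNA or DNA. Cd14 is a co-receptor that hands lipopolysaccharide to the Tlr4 complex and helps several other receptors bind their ligands. Mouse Toll-like receptor genes Tlr1, Tlr2, Tlr3, Tlr4, Tlr6, Tlr7, Tlr8, Tlr9 and Tlr13 were read together with Cd14 in all 6 libraries of the series, giving 10 of the 31053 genes counted.

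Bone marrow of mice was cultured with GM-CSF into dendritic cells (DCs), which were left untreated, stimulated with vitamin D3 (VD3, 1e-06 M for 24 h), or edited with Cas9 and guides against Ndrg2 (Ndrg2-KO). The methods describe nucleofection of the edited cells, which the untreated and VD3-stimulated cells did not go through. Excisional wounds of mice received a hydrogel with Ndrg2-KO DCs, a hydrogel with control DCs, or a blank hydrogel, and were digested on day 10. The labels call the control DCs of the wounds untreated, while the methods describe nucleofection with non-targeting guides, and the series text also names sorting of GFP-positive cells from joined mice, which the methods do not.

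Each condition was a single 3′ single-cell library, so no replicate check was possible and no test was run. Levels are in CPM, the UMIs of a gene per 1e6 UMIs of the kept cells, and the ranges in parentheses are exact 95% intervals that cover counting error only. A ratio is a log2 difference between 2 libraries, measured where the gene had at least 50 UMIs in both together, and called where it was at least 2-fold. Kept cells numbered 7257, 8825 and 7969 in the untreated, VD3-stimulated and Ndrg2-KO DC libraries, with medians of 15804, 12089 and 16316 UMIs per cell. The control DC, Ndrg2-KO DC and blank hydrogel wound libraries had 1948, 5681 and 3403 kept cells, with medians of 10795, 4415 and 5603 UMIs per cell. Wound cell classes differed in UMIs per cell and in their shares between the wounds, so these medians do not compare depth within a class. Between any pair of libraries at most 19 barcodes were shared, and the largest share was 0.264% of the smaller library.

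Ndrg2 itself read 4.62, 1.42 and 0.884 CPM (613, 165 and 127 UMIs) in untreated, VD3-stimulated and Ndrg2-KO DCs. The log2 ratio to untreated DCs was -2.39 in Ndrg2-KO DCs and -1.71 in VD3-stimulated DCs. Summed over all cells, Ndrg2 transcript was thus lower past 2-fold in both, and lowest in the edited library. A 3′ tag is counted whether or not an indel lies elsewhere in the transcript, so the remaining UMIs say nothing of the protein. The integrin Itgax, which marks DCs, read 146, 77.8 and 263 CPM in the same order, the MHC class II gene H2-Ab1 read 908, 561 and 487 CPM, and the DC growth factor receptor gene Flt3 read 2.69, 1.10 and 0.794 CPM. The edited library thus had the most Itgax and the least H2-Ab1 and Flt3 of the 3 DC libraries.

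The 3 DC libraries fell into 15 clusters, most of which held cells of 1 library, so a difference between clusters cannot be told apart from one between libraries. Premature DC-like cells made up 51.5% of Ndrg2-KO cells but 0.0689% of untreated and 0.0113% of VD3-stimulated cells. Mature DC-like cells made up 37.4%, 39.5% and 26.2% of untreated, VD3-stimulated and Ndrg2-KO cells, held mostly by a different cluster in each. Macrophage-like cells made up 15.7%, 16.4% and 0.0502%, neutrophil-like cells 12.7%, 12.6% and 0.464%, and cDC1-like cells 1.06%, 1.65% and 0.0125%, in the same order. The 5 cDC1 markers summed to 275, 121 and 272 CPM, mostly Naaa (226, 88.0 and 234 CPM), with 1 higher and 1 lower past 2-fold in Ndrg2-KO than in untreated DCs. The paper found its strongest Ndrg2 expression in a cluster with Itgae and Clec9a, which also marked the cDC1-like class. The part of that class in the Ndrg2 values was not tested. Proliferating cell-like cells made up 30.8%, 16.7% and 16.2% of cells and held 42.3%, 2.88% and 21.0% of UMIs, and unnamed clusters 1.49%, 12.2% and 5.51% of cells and 2.11%, 23.4% and 2.84% of UMIs. The edited culture therefore had few cells in the clusters named macrophage-like or neutrophil-like. The 8 macrophage markers, none at 0 UMIs, went the other way, summing to 665, 1217 and 1346 CPM, with C1qb the most abundant in untreated and VD3-stimulated DCs (297 and 445 CPM) and Apoe in Ndrg2-KO DCs (583 CPM), and 2 of the 8 were higher past 2-fold in Ndrg2-KO than in untreated DCs. The name of the untreated macrophage-like cluster also depended on the clustering, as 2 untreated cells were macrophage-like at resolution 1.0 and 0 with 30 components. The 8 neutrophil markers, none at 0 UMIs, summed to 5331, 6335 and 401 CPM, with S100a8 the most abundant (3044, 3561 and 216 CPM), and 6 of the 8 were lower and 1 higher past 2-fold in Ndrg2-KO than in untreated DCs. The 8 premature DC markers summed to 9976, 4195 and 28329.7 CPM, with Lyz2 the most abundant (6333, 3070.1 and 17572 CPM). Of the 8, 4 were higher and 2 lower past 2-fold in Ndrg2-KO than in untreated DCs, and 6 were lower with VD3. The 8 mature DC markers summed to 6301, 6200 and 5525 CPM, with Ccl5 the most abundant. Of these, 4 were lower past 2-fold in Ndrg2-KO than in untreated DCs, and 1 was higher with VD3. The 5 markers of granulocyte-monocyte progenitors summed to 217, 85.2 and 6.04 CPM, with Prtn3 the most abundant (85.3, 42.4 and 5.49 CPM) and Mpo at 0 in Ndrg2-KO DCs, and 5 of the 5 were lower past 2-fold than in untreated DCs in both other libraries. The 6 proliferating cell markers, none at 0 UMIs, summed to 939, 749 and 554 CPM, with Stmn1 the most abundant (248, 198 and 195 CPM). Of the 6, 3 were lower past 2-fold in Ndrg2-KO than in untreated DCs. None was called with VD3, although the proliferating cell-like class held far less of the UMIs there. What part these shifts have in the values of all cells was not tested, and values within classes are given after them.

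Cd14 (ENSMUSG00000051439, chr18:36725067-36726798, minus strand), the lipopolysaccharide co-receptor, read 44.3 (43.2 to 45.4), 40.9 (39.8 to 42.1) and 178 (176 to 180.2) CPM in untreated, VD3-stimulated and Ndrg2-KO DCs. Its level in the edited library stood far above the others, which were close to each other. The log2 ratio was 2.01 (1.97 to 2.05) for Ndrg2-KO against untreated DCs, 4.02-fold, and 2.12 (2.08 to 2.16) for Ndrg2-KO against VD3-stimulated DCs, 4.35-fold. VD3-stimulated against untreated DCs differed by -0.11 (-0.17 to -0.06), which was not called. Of the Cd14 UMIs in Ndrg2-KO DCs, premature DC-like cells held 70.0% and mature DC-like cells 2.85%. Of those in untreated DCs, proliferating cell-like cells held 52.4% and mature DC-like cells 2.01%. In each of these libraries the mature DC-like cells thus gave a small part of the Cd14 signal.

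The surface receptors came apart, with Tlr2 lower and Tlr1 higher in both altered cultures. Tlr2 (ENSMUSG00000027995, chr3:83836272-83841767, minus strand), which binds bacterial lipopeptides with Tlr1 or Tlr6, read 107 (106 to 109), 46.7 (45.4 to 47.9) and 28.9 (28.0 to 29.8) CPM in untreated, VD3-stimulated and Ndrg2-KO DCs. It fell 2.30-fold with VD3, a log2 ratio of -1.20 (-1.25 to -1.16), and 3.72-fold in Ndrg2-KO against untreated DCs, a log2 ratio of -1.89 (-1.94 to -1.84). Cd14 and Tlr2 therefore went in opposite directions in the edited cells. Of the Tlr2 UMIs in untreated DCs proliferating cell-like cells held 62.2%, and 1.75% of those in VD3-stimulated DCs, where unnamed clusters held 35.1%. The VD3 fall was not called within mature DC-like, macrophage-like or neutrophil-like cells, and the part of the changed makeup in it was not tested. Proliferating cell-like cells, not compared between these libraries, read 158 and 28.3 CPM of Tlr2 in untreated and VD3-stimulated DCs. Of those VD3-stimulated cells 1458 sat in a cluster with a median of 2025 UMIs, and 1668 of the untreated cells in one with a median of 26342.5 UMIs. At resolution 1.0 a cluster with 1453 VD3-stimulated cells was too shallow to be named, and no VD3-stimulated cell was proliferating cell-like, so no change was read from these values. Tlr1 (ENSMUSG00000044827, chr5:64924679-64933563, minus strand), the partner of Tlr2 for triacylated lipopeptides, read 0.965 (0.805 to 1.15), 2.74 (2.45 to 3.06) and 2.01 (1.78 to 2.25) CPM in untreated, VD3-stimulated and Ndrg2-KO DCs. Tlr1 was higher by 1.5 (1.20 to 1.81) with VD3 and by 1.05 (0.75 to 1.37) in Ndrg2-KO DCs, 2.84-fold and 2.08-fold. Both rises rest on 128 UMIs in untreated DCs.

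Tlr4 (ENSMUSG00000039005, chr4:66827584-66930284, plus strand), the lipopolysaccharide receptor, read 31.9 (31.0 to 32.9), 20.8 (20.0 to 21.6) and 30.4 (29.5 to 31.3) CPM in untreated, VD3-stimulated and Ndrg2-KO DCs. Tlr6 (ENSMUSG00000051498, chr5:64952031-64960097, minus strand), the partner of Tlr2 for diacylated lipopeptides, read 3.41 (3.1 to 3.74), 2.89 (2.58 to 3.21) and 4.45 (4.11 to 4.81) CPM in untreated, VD3-stimulated and Ndrg2-KO DCs. Neither gene was called between any pair of DC libraries. The Tlr4 ratio was -0.62 (-0.69 to -0.55) for VD3 against untreated and -0.07 (-0.13 to -0.01) for Ndrg2-KO against untreated DCs, so the receptor stayed level while its co-receptor Cd14 rose in the edited cells. For Tlr6 the ratios were -0.24 (-0.45 to -0.03) and 0.38 (0.21 to 0.56). Tlr1 and Tlr6 lie 18467 bases apart on the same chromosome and are close relatives, and how reads that fit both were handled was not examined. Between Ndrg2-KO and VD3-stimulated DCs the ratios of Tlr1, Tlr2, Tlr4 and Tlr6 were -0.45, -0.69, 0.55 and 0.62, all under 2-fold.

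The endosomal RNA receptors Tlr7, Tlr8 and Tlr13 were highest in the Ndrg2-KO library and lowest in the VD3-stimulated one. Tlr7 (ENSMUSG00000044583, chrX:167304929-167330558, minus strand), a receptor of single-stranded RNA, read 4.78 (4.42 to 5.17), 2.93 (2.63 to 3.26) and 14.3 (13.7 to 14.9) CPM in untreated, VD3-stimulated and Ndrg2-KO DCs. Tlr8 (ENSMUSG00000040522, chrX:167242696-167264329, minus strand), its relative 40599 bases away, read 1.15 (0.972 to 1.34), 0.515 (0.393 to 0.663) and 3.68 (3.37 to 4.0) CPM in untreated, VD3-stimulated and Ndrg2-KO DCs. Tlr13 (ENSMUSG00000033777, chrX:106143204-106160493, plus strand), which binds bacterial ribosomal RNA, read 11.9 (11.3 to 12.5), 5.44 (5.03 to 5.88) and 29.3 (28.4 to 30.2) CPM in untreated, VD3-stimulated and Ndrg2-KO DCs. All 3 genes were thus ordered the same way over the libraries. Against untreated DCs, Ndrg2-KO DCs were higher by 1.58 (1.45 to 1.71) in Tlr7, a 2.99-fold rise. Tlr8 rose by 1.68 (1.42 to 1.95), 3.21-fold. Tlr13 rose by 1.30 (1.21 to 1.38), 2.46-fold.

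With VD3 the same 3 receptor genes were lower than in untreated DCs, and called in Tlr8 and Tlr13. Tlr8 changed by -1.15 (-1.61 to -0.71), a 2.23-fold fall. Tlr13 changed by -1.13 (-1.26 to -0.99), a 2.19-fold fall. The Tlr7 ratio of -0.71 (-0.90 to -0.52) was under 2-fold. Ndrg2-KO against VD3-stimulated DCs gave the widest gaps of the endosomal receptors, 2.84 (2.45 to 3.25) for Tlr8, 2.43 (2.31 to 2.55) for Tlr13 and 2.29 (2.12 to 2.46) for Tlr7. These 3 comparisons share libraries in pairs, so their values are not separate observations.

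Tlr3 (ENSMUSG00000031639, chr8:45395665-45411080, minus strand), the double-stranded RNA receptor, overlaps the opposite-strand gene Gm45542 and read 1.92 (1.69 to 2.17), 1.26 (1.07 to 1.48) and 2.81 (2.55 to 3.1) CPM in untreated, VD3-stimulated and Ndrg2-KO DCs. It was called between Ndrg2-KO and VD3-stimulated DCs alone, at 1.16 (0.88 to 1.44), while its ratios to untreated DCs were 0.55 (0.32 to 0.78) with the knockout and -0.61 (-0.91 to -0.31) with VD3. Tlr9 (ENSMUSG00000045322, chr9:106222598-106226883, plus strand), the receptor of unmethylated CpG DNA, had 13, 14 and 29 UMIs in the untreated, VD3-stimulated and Ndrg2-KO libraries and was not measured in any DC comparison. In the cultures Tlr9 was therefore close to unread, and mature DC-like cells gave 76.9%, 57.1% and 37.9% of these few UMIs, in the same order.

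As a list, 4 of 9 measured members were called between VD3-stimulated and untreated DCs, beside 11.6% of all 13113 genes measured. Their median log2 ratio was -0.62, against -0.08 over all genes. Between Ndrg2-KO and untreated DCs 6 of 9 were called, 5 higher and 1 lower, beside 19.5% of all genes, with a median of 1.05 against -0.06. Between Ndrg2-KO and VD3-stimulated DCs 5 of 9 were called, all 5 higher, beside 22.2% of all genes, with a median of 1.16 against 0.00. The called members of Ndrg2-KO DCs were thus mostly higher. For VD3 against untreated DCs 1 member was called with under 5% mitochondrial UMIs or as a mean over cells, so no excess over all genes was read there. With so few members, the difference from the background was not tested in any comparison.

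Some of these calls depended on the processing. With under 5% mitochondrial UMIs allowed, the VD3 ratios of Tlr8 and Tlr13 were -0.70 and -0.68, under 2-fold, and as a mean over cells those of Tlr2, Tlr8 and Tlr13 were -1.0, -0.82 and -0.82, each short of 2-fold. For Ndrg2-KO against untreated DCs, the stricter mitochondrial limit gave 2.48 for Tlr1, -1.15 for Tlr2 and 1.30 for Tlr3, the last then past 2-fold, and the mean over cells took Tlr13 to 0.99. Leaving out mitochondrial and ribosomal genes took Tlr1 to 0.96 in that comparison, and Tlr3 to 0.96 between Ndrg2-KO and VD3-stimulated DCs. In the latter comparison the stricter limit gave 2.79 for Cd14, and took Tlr4 to 1.01 and Tlr6 to 1.34, past 2-fold, and the mean over cells 1.81 for Tlr13. The Cd14, Tlr7 and Tlr8 rises in Ndrg2-KO DCs thus kept past 2-fold under each of these settings. Another scale shifted every ratio of a comparison alike, and shifts over 0.1 log2, to be taken off each ratio, were 0.19 for Ndrg2-KO against VD3-stimulated DCs without mitochondrial and ribosomal genes. In the class comparisons that follow, leaving out those genes shifted the scale by -0.19 for mature against premature, 0.11 for proliferating and -0.16 for VD3 macrophage-like cells, and median-ratio scaling by 0.21 for Ndrg2-KO against untreated mature DC-like cells. For Ndrg2-KO against VD3-stimulated mature DC-like cells the shifts were 0.12 and 0.11.

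**Figure D1:**
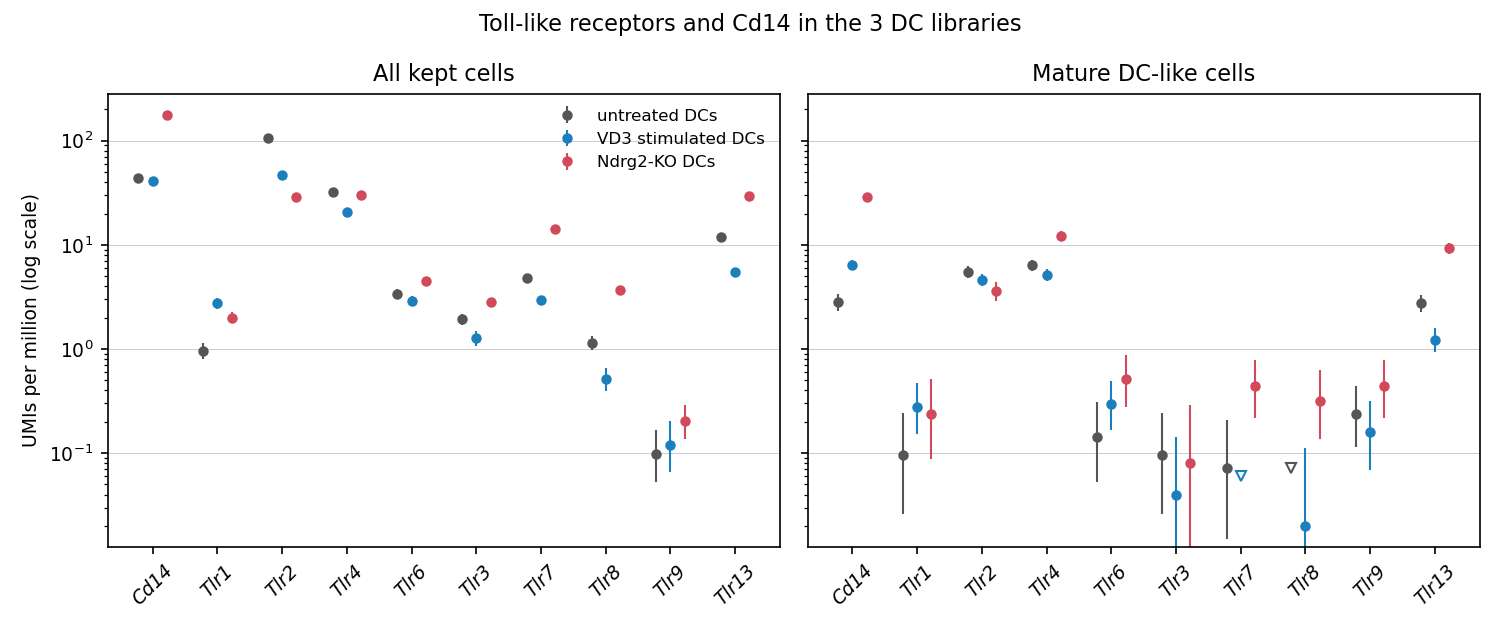
Level of each member in the 3 DC libraries, in CPM on a log scale, over all kept cells (left) and mature DC-like cells (right). Bars are exact 95% intervals of the count, and open triangles mark a count of 0 drawn at the level of 3 UMIs.

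Premature and mature DC-like cells of the same Ndrg2-KO library differed in every measured member. Cd14 read 213 CPM in premature and 28.9 CPM in mature DC-like cells, a log2 ratio of -2.88 (-2.99 to -2.77). Tlr2 read 32.8 and 3.62 CPM, a ratio of -3.18. The smallest gaps were in Tlr4, at -1.42, and Tlr13, at -1.93. So mature DC-like cells of this library kept part of the Tlr4 and Tlr13 signal but little of the rest. Ratios for Tlr1, Tlr6, Tlr7 and Tlr8 were -3.20, -3.31, -5.30 and -3.88. The Tlr3 ratio of -5.53 (-8.58 to -3.67) rests on 2 against 309 UMIs, and Tlr9, at 11 against 13, was not measured. With under 5% mitochondrial UMIs 7 members were called, as Tlr1 and Tlr8 then had too few UMIs to be measured, and Tlr2 and Tlr6 gave -3.98 and -4.22. Tlr3, with no UMI in mature DC-like cells at that limit, gave a bound of -2.32, and resolution 1.0 gave -4.60 for Tlr3. The main values put 9 of 9 members past 2-fold lower, beside 30.2% of all genes called, with a member median of -3.20 against -0.10 over all genes.

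Within mature DC-like cells alone, Cd14 separated the 3 libraries more than it did over all cells. It read 2.82, 6.36 and 28.9 CPM in untreated, VD3-stimulated and Ndrg2-KO mature DC-like cells. Against untreated cells the log2 ratio was 1.17 (0.86 to 1.49) with VD3 and 3.36 (3.07 to 3.65) with the knockout, so VD3 passed 2-fold here although it had not over all cells. The Tlr2 ratio was -0.26 with VD3 and -0.61 with the knockout, neither called, so the fall of Tlr2 over all cells was not seen in this class at 2-fold. Tlr13 fell with VD3, at -1.16, and rose with the knockout, at 1.75, while Tlr4 gave -0.31 and 0.95. The calls were 2 of 4 with VD3, beside 8.02% of all genes, 2 of 4 with the knockout, beside 14%, and 3 of 4 for Ndrg2-KO against VD3-stimulated cells, beside 14.5%. The other members had too few UMIs in this class to be measured. In Ndrg2-KO against VD3-stimulated cells Cd14, Tlr4 and Tlr13 were higher by 2.19, 1.25 and 2.91, and Tlr2 gave -0.36. Because each library's mature DC-like cells sat mostly in a cluster of their own, state and library cannot be told apart here.

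Proliferating cell-like cells, also in separate clusters, repeated the contrast of Cd14 and Tlr2. The name of the untreated class depended on the clustering, as with 30 components 1767 untreated cells sat in a cluster that stayed unnamed because its leading genes held the granulocyte-monocyte progenitor markers Ms4a3, Elane, Prtn3 and Ctsg. Cd14 read 54.8 CPM in untreated cells and rose by 1.87 (1.80 to 1.93) in Ndrg2-KO cells, and Tlr2 fell from 158 to 30.9 CPM, a ratio of -2.35. Tlr1, Tlr7, Tlr8 and Tlr13 rose by 1.51, 1.58, 1.39 and 1.10, and 6 of 9 members were called beside 16.8% of all genes. The genes called were the same as over all cells, and the Tlr13 call was lost without mitochondrial and ribosomal genes in the scale. In macrophage-like cells, VD3 against untreated gave 3 of 9 calls beside 14.1%, with Tlr1 at 1.11, Tlr8 at -1.16 and Tlr13 at -1.06, and Tlr2 under 2-fold at -0.83. In neutrophil-like cells the same comparison gave 0 of 5 calls beside 4.06%, with Tlr13 at 0.09 and Tlr2 at -0.48, and Tlr1 and Tlr8 not measured there. The macrophage-like cells of the 2 libraries sat in separate clusters, and without mitochondrial and ribosomal genes in the scale the Tlr8 and Tlr13 calls there were lost. The difference between these classes was not tested.

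Ordered over the culture classes with all libraries together, premature DC-like cells were highest in Cd14 (213 CPM), Tlr7 (17.2), Tlr8 (4.69) and Tlr13 (35.2). That class came almost wholly from the Ndrg2-KO library. Inside that library 37 neutrophil-like cells were ahead in Cd14, at 311 (224 to 421) CPM on 42 UMIs against 213 (209.8 to 216) in premature DC-like cells. No order was read there for Tlr13, with 5 UMIs in neutrophil-like cells, or for Tlr7, where proliferating and premature DC-like cells lay within the interval of each other. Neutrophil-like cells were highest in Tlr2 (193 CPM), Tlr4 (58.4) and Tlr6 (7.50), the last within the interval of macrophage-like cells (5.86). In untreated DCs alone the intervals of neutrophil-like and macrophage-like cells overlapped in Tlr4, at 48.1 and 53.6 CPM, and in Tlr6, at 6.17 and 6.29 CPM, so no order was read between them there. Cross-presenting cDC1-like cells were highest in Tlr3, at 19.0 CPM against 3.67 in the next class, and read 23.8 CPM in the untreated and 16.4 in the VD3-stimulated library. Those 224 cells held 7.20% of the Tlr3 UMIs of the cultures, and premature DC-like cells held 38.3%, so most Tlr3 was read in other classes. For Tlr1, cDC1-like, basophil-like and macrophage-like cells came first, at 5.57, 5.25 and 3.60 CPM, each within the interval of the next of them. Macrophage-like cells were clear of premature DC-like cells, at 2.19 CPM. The cDC1-like cells had 16 Tlr1 UMIs in VD3-stimulated and 0 in untreated DCs. No order was read for Tlr9.

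After each cell was drawn down to 2000 UMIs, Cd14 was seen in 6.88%, 7.01% and 23.7% of untreated, VD3-stimulated and Ndrg2-KO cells, against 31.1%, 25.3% and 66.3% without drawing. Tlr2 was seen in 15.9%, 8.68% and 5.23% of drawn cells (44.5%, 27.0% and 27.6% undrawn). Cd14 was thus more widely seen, and Tlr2 less, in the edited library, and no order was read between the Cd14 shares of the other libraries. At least 1 member was seen in 24.4%, 18.8% and 36.9% of drawn cells (57.3%, 45.9% and 79.1% undrawn). Drawing left out 472, 1149 and 134 cells. Within Ndrg2-KO DCs, Cd14 was seen in 31.0% of premature and 4.38% of mature DC-like drawn cells (85.2% and 19.8% undrawn), so most mature DC-like cells showed none at this depth. Free RNA of the culture can add such UMIs to any cell, and its part was not measured.

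Genes that work with these receptors were read in the same libraries. Of the co-receptors and chaperones, VD3 gave 3 higher and 1 lower of 8 measured and Ndrg2-KO 2 higher and 0 lower of 8 measured against untreated DCs, where 11.6% and 19.5% of all genes were called. With the knockout this count, 2 of 8, was near that share. The lipopolysaccharide-binding protein gene Lbp and the Cd180 partner gene Ly86 rose with VD3, by 1.06 and 1.02. Cd36, a scavenger receptor that helps Tlr2 bind ligands, rose from 182 to 1469.5 CPM with the knockout, a log2 ratio of 3.02 (3.0 to 3.04), and fell with VD3, at -1.56. Unc93b1, the chaperone that carries endosomal receptors out of the endoplasmic reticulum, was higher in both, by 1.38 with VD3 and 1.09 with the knockout. Of the adaptors and kinases, 0 higher and 0 lower of 15 measured were called with VD3 and 0 higher and 0 lower of 15 measured with the knockout.

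Transcription factors of the pathway gave 1 higher and 0 lower of 8 measured with VD3, where Irf8 rose by 1.21, and 1 higher and 2 lower of 8 measured with the knockout, where the interferon factor Irf7 rose by 2.13 and the NF-kB genes Nfkb2 and Rel fell, at -1.04 and -1.07. Negative regulators gave 0 higher and 0 lower of 9 measured with VD3 and 0 higher and 2 lower of 9 measured with the knockout, Nfkbie at -1.29 and Socs1 at -1.5. Among response genes, the counts were 2 higher and 1 lower of 8 measured with VD3 and 1 higher and 3 lower of 9 measured with the knockout. Tnf, the inflammatory cytokine, fell from 35.1 to 3.46 CPM in Ndrg2-KO DCs, a ratio of -3.34 (-3.48 to -3.21), with Cxcl2 at -2.41 and Il6 at -1.66. Nos2, the inducible nitric oxide synthase gene, rose by 4.52 (3.61 to 5.59), on 248 against 10 UMIs. With VD3, Ptgs2 rose by 3.43 and Ccl4 by 1.73, and Cxcl2 fell, at -1.35. Beside the 11.6% of all genes called with VD3 and 19.5% with the knockout, 1 of 8 transcription factors with VD3 and 2 of 9 negative regulators with the knockout were near the background and were not read as results of those lists. In the edited cells higher Cd14, Tlr7, Tlr8 and Tlr13 thus sat beside lower Tnf, Il6 and Cxcl2. Of the remaining receptors Tlr5, Tlr11 and Tlr12, Tlr11 fell with VD3, at -1.78, and none of the 3 was called with the knockout.

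Set against VD3-stimulated rather than untreated DCs, the edited cells had 1 higher and 1 lower of 8 measured among co-receptors and chaperones, Cd36 at 4.58 and Lbp at -2.02. Of the other receptors Tlr11 was higher, at 1.47, and of 15 adaptors and kinases none was called. Transcription factors gave 1 higher and 2 lower of 8 measured, Irf7 at 1.75, Nfkb2 at -1.07 and Rel at -1.55, and of the negative regulators Nfkbia alone was called, at -1.83. Response genes gave 1 higher and 6 lower of 9 measured, with Nos2 at 4.33, Tnf at -3.61 and Ptgs2 at -3.85. Il6, Il12b, Cxcl2 and Ccl4 gave -1.37, -1.35, -1.06 and -1.29. Of all genes 22.2% were called in this comparison, so 2 of 8 co-receptors and 1 of 9 negative regulators did not stand above the background. Tnf, Il6 and Cxcl2 were thus lower in the edited cells in both comparisons, which share the Ndrg2-KO library.

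The calls of pathway genes near 2-fold depended on the processing. With VD3, the 5% mitochondrial limit took Lbp, Ly86, Irf8 and Cxcl2 to 0.34, 0.66, 0.93 and -0.36, left Tlr11 with too few UMIs to be measured, and took Irf7 and Il1b past 2-fold higher. The mean over cells took Ly86, Irf8 and Cxcl2 to 0.73, 0.92 and -0.53. Median-ratio scaling, and leaving out mitochondrial and ribosomal genes, took Nfkbia past 2-fold higher, and the latter took Ccl3 to the 2-fold line. With the knockout against untreated DCs, Unc93b1 went to 0.99 without mitochondrial and ribosomal genes, where Lbp passed 2-fold lower, as it did with all barcodes. Nfkb2 went to -0.99 with median-ratio scaling, and Nfkb2 and Rel to -0.98 and -0.97 with all barcodes and -0.84 and -0.87 as a mean over cells. The adaptor gene Ticam2 went the other way, to 1.54 with the stricter mitochondrial limit, 1.03 with median-ratio scaling and 1.18 as a mean over cells, so the count of none among adaptors and kinases holds for the main values. Il12b and Il1b passed 2-fold lower under the mitochondrial limit and the mean over cells, in that order.

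Against VD3-stimulated DCs, the mean over cells took Irf7, Nfkb2, Il6 and Il12b to 0.87, -0.66, -0.46 and -0.57 and took Il1b and Socs1 past 2-fold lower and Tlr12 higher. Nfkb2 gave -0.99 with all barcodes, and leaving out doublets took Cxcl2 just under 2-fold. The stricter mitochondrial limit took Cd180, Ticam2 and Irak2 past 2-fold higher and Irf8, Socs1 and Il1b lower, and left Tlr11 unmeasured. Without mitochondrial and ribosomal genes Irf8, Cyld and Socs1 passed 2-fold lower. The Cd36, Nos2 and Tnf calls of the edited cells stayed past 2-fold in both comparisons under each of these filters and scalings.

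In the wounds, 14 clusters gave 10 named classes. Most members were highest in a myeloid class, which here means neutrophil-, macrophage-, monocyte- or dendritic cell-like. Tlr3 was not, and the place of Tlr9 rested on 6 UMIs. With all 3 wound libraries together, neutrophil-like cells were highest in Cd14 (5633 CPM), Tlr1 (30.0), Tlr4 (139), Tlr6 (149.8) and Tlr13 (115). Monocyte-like cells were highest in Tlr2, at 457 CPM against 342 in neutrophil-like and 308 in macrophage-like cells. Each of these classes was also first in every wound library alone, over the classes with enough cells there, with intervals clear of the next class except for Tlr1 in blank hydrogel wounds. The monocyte-like name depended on the clustering. With 30 components a cluster of 974 cells with monocyte markers stayed unnamed, as its leading genes held more dendritic cell markers. The places behind Tlr2's first were not shared, as macrophage-like cells at 317 CPM were ahead of neutrophil-like cells at 287 in Ndrg2-KO DC wounds and behind them in the other wounds. Macrophage-like cells held 47.7% of all Tlr1 and 47.9% of all Tlr2 UMIs. Of the UMIs of all genes they held 25.2%, 34.3% and 29.6% in control DC, Ndrg2-KO DC and blank hydrogel wounds. Neutrophil-like cells held 5.54%, 19.9% and 16.9%, in the same order. Macrophage-like cells were highest in Tlr7 (48.1 CPM against 29.4 in monocyte-like cells) and in Tlr8 (10.8, within the interval of the 8.97 of monocyte-like cells). Tlr7 kept that order in every wound library, while for Tlr8 monocyte-like cells came first in Ndrg2-KO DC wounds, within the interval. Endothelial cell-like cells were highest in Tlr3, at 25.4 CPM on 32 UMIs of 55 cells, ahead of macrophage-like (8.65) and fibroblast-like cells (7.63), which lay within the interval of each other. In control DC wounds alone endothelial cell-like cells read 30.5 CPM on 16 UMIs.

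Tlr9 was read in few wound cells, with dendritic cell-like cells first at 2.35 CPM on 6 UMIs, within the interval of monocyte-like cells at 2.04. Neutrophil-like cells held 57.0% of all Cd14 UMIs and 77.7% of all Tlr6 UMIs of the wounds, and macrophage-like cells held 78.8% of all Tlr7 UMIs. Tlr6 and Tlr7 were therefore nearly split between those classes, with Tlr7 at 5.02 CPM in neutrophil-like and Tlr6 at 12.8 CPM in macrophage-like cells. Dendritic cell-like cells read 727 CPM of Cd14 and 104 CPM of Tlr2, below the other myeloid classes in both. T cell-like cells, a class not known for Cd14, read 251 CPM, and levels near or under that were not told apart from background of these libraries. Their name depended on the clustering. With 30 components a cluster of 556 cells with T cell markers stayed unnamed, as its leading genes held more mast cell markers. Erythroid cell-like cells read 1936 CPM, but 63 of these 75 cells came from Ndrg2-KO DC wounds, so their place among the classes depends on that library. There they read 2124 CPM, against 2846 in monocyte-like and 1569 in macrophage-like cells, and whether their droplets also held a myeloid cell was not tested.

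**Figure D2:**
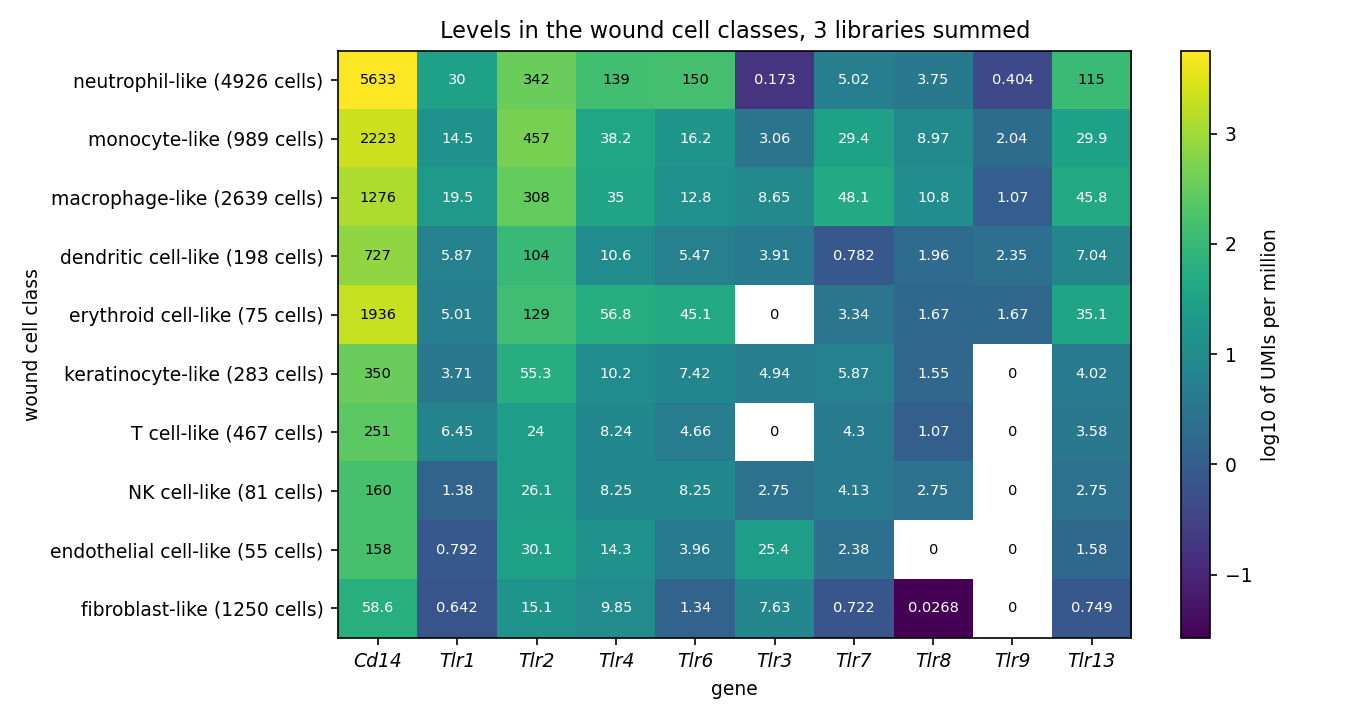
Level of each member in the wound classes, in CPM with all 3 wound libraries together, printed in each square. White squares had 0 UMIs.

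Over all wound cells Cd14 read 751 (741 to 760.4), 2051 (2038 to 2063) and 1372 (1359.7 to 1384) CPM in control DC, Ndrg2-KO DC and blank hydrogel wounds. It rose 2.73-fold in Ndrg2-KO DC against control DC wounds, a log2 ratio of 1.45 (1.43 to 1.47), and the blank hydrogel ratio of 0.87 (0.85 to 0.89) was under 2-fold. Control DC wounds were thus the lowest of the 3 in Cd14. Tlr2 read 102 (98.3 to 106), 208 (204 to 212) and 259.8 (254 to 265) CPM in control DC, Ndrg2-KO DC and blank hydrogel wounds, and was higher than in control DC wounds by 1.03 (0.97 to 1.09) with Ndrg2-KO DCs and 1.35 (1.29 to 1.41) with the blank hydrogel. Tlr6 read 14.5 (13.2 to 15.9), 37.1 (35.4 to 38.8) and 31.1 (29.3 to 33.0) CPM in control DC, Ndrg2-KO DC and blank hydrogel wounds, with ratios of 1.35 (1.20 to 1.51) and 1.10 (0.94 to 1.27). Blank wounds therefore shifted these genes in the same direction as Ndrg2-KO DC wounds, and all ratios share the control DC library.

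Tlr13 read 20.7 (19.1 to 22.4), 35.4 (33.7 to 37.1) and 46.3 (44.1 to 48.6) CPM in control DC, Ndrg2-KO DC and blank hydrogel wounds, and was called in blank hydrogel wounds at 1.16 (1.03 to 1.30) but not in Ndrg2-KO DC wounds at 0.77 (0.64 to 0.91). Tlr1 read 8.29, 15.6 and 11.5 CPM in control DC, Ndrg2-KO DC and blank hydrogel wounds, and Tlr4 read 26.8, 46.0 and 41.6 CPM, with ratios of 0.91 and 0.78 for Ndrg2-KO DC and 0.47 and 0.64 for blank hydrogel wounds. Those 2 genes were not called, although median-ratio scaling took Tlr1 in Ndrg2-KO DC wounds to 1.06, past 2-fold, and the count of called members there to 4. Tlr3 read 7.04, 5.46 and 6.50 CPM, Tlr7 19.2, 17.6 and 19.5 CPM, and Tlr8 4.45, 4.79 and 5.01 CPM. Each of these 3 endosomal receptors was close to level over the wounds. Tlr9 had 27, 31 and 13 UMIs, a ratio of -0.53 (-1.32 to 0.27) with Ndrg2-KO DCs. In counts, 3 of 10 members were called in Ndrg2-KO DC wounds beside 10.6% of all genes, with a median of 0.78 against -0.15 over all genes, and 3 of 9 in blank hydrogel wounds beside 7.6%, with 0.64 against -0.04.

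The makeup of the libraries moved with these values. Neutrophil-like cells were 23.8%, 51.0% and 45.9% of cells in control DC, Ndrg2-KO DC and blank hydrogel wounds, and held 5.54%, 19.9% and 16.9% of all UMIs. Fibroblast-like cells were 24%, 8.15% and 9.40%, and held 50.1%, 26.0% and 27.7% of UMIs. The genes called over all cells in Ndrg2-KO DC wounds, Cd14, Tlr2 and Tlr6, were thus high in the neutrophil-like class, which took more of the UMIs there. The 8 neutrophil markers, none at 0 UMIs, summed to 8304, 26254 and 20592 CPM, with S100a9 the most abundant (4279, 13618 and 10702 CPM) and 7 of 8 higher past 2-fold in both. The 7 fibroblast markers summed to 50484, 22359 and 22709 CPM, with Col3a1 the most abundant (15865, 7899 and 7354 CPM), and 6 and 4 of 7 lower past 2-fold. The 5 erythroid markers summed to 1479.7, 8703 and 3137 CPM, with Hbb-bs the most abundant (933, 5260.1 and 1901 CPM), and 5 of 5 were higher past 2-fold in both. The 5 B cell markers summed to 21.9, 146 and 84.7 CPM, mostly Ighm (17.6, 142 and 79.5 CPM), the 1 of 5 higher past 2-fold in both. The part of these shifts in the member values over all cells was not tested.

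Processing also moved the wound calls over all cells. In Ndrg2-KO DC wounds Tlr2 gave 0.98 with 300 UMIs in place of 300 genes required, 0.98 with all barcodes, 0.96 with doublets left out and 0.64 as a mean over cells, all under 2-fold, and Tlr6 gave 0.70 as that mean, which also took Tlr9 past 2-fold lower. In blank hydrogel wounds the mean over cells took Tlr6 to 0.52 and Tlr13 to 0.81. Cd14 in Ndrg2-KO DC wounds and Tlr2 in blank hydrogel wounds were called in each alternative that was run. Median-ratio scaling shifted the scale, to be taken off each ratio, by -0.15 over all cells of Ndrg2-KO DC wounds and by 0.23 in neutrophil-like cells of blank hydrogel wounds.

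Within neutrophil-like cells Cd14 stayed within 2-fold, at 5701 CPM in control DC, 6075 in Ndrg2-KO DC and 4881 in blank hydrogel wounds. Its ratios to control DC wounds were 0.09 (0.06 to 0.12) and -0.22 (-0.26 to -0.19). Tlr2 gave 0.07 and 0.74, and Tlr6 -0.46 and -0.44. So the rises of Cd14, Tlr2 and Tlr6 over all cells of Ndrg2-KO DC wounds were not seen at 2-fold inside this class. The paper's supplement lists Cd14 as higher in neutrophils of Ndrg2-KO DC than of control DC wounds, also by under 2-fold. The clusters joined in this class held 376 and 87 cells of control DC, 1755 and 1145 of Ndrg2-KO DC and 1200 and 363 of blank hydrogel wounds. The sole call with Ndrg2-KO DCs was Tlr7, lower at -1.27 (-2.11 to -0.36) on 42 against 17 UMIs, 1 of 7 measured members beside 8.24% of all genes. With the blank hydrogel it was Tlr1, which fell from 48.6 to 23.2 CPM, a ratio of -1.07 (-1.47 to -0.65), 1 of 6 beside 8.25%. Neither share stands clear of its background. With the wounds together T cell-like cells read 4.30 (2.22 to 7.51) CPM of Tlr7, a range that holds the 5.02 of neutrophil-like cells, although none of their 12 UMIs came from control DC wounds, so the Tlr7 call was not read as a change in neutrophil-like cells. Tlr1, Tlr4 and Tlr13 gave -0.66, -0.65 and -0.62 with Ndrg2-KO DCs, and Tlr4 and Tlr13 -0.59 and 0.08 with the blank hydrogel. Tlr3, Tlr8 and Tlr9 had too few UMIs in this class to be measured in either comparison, as did Tlr7 with the blank hydrogel.

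In macrophage-like and monocyte-like cells, read as 1 class, Cd14 read 1247, 1799 and 1194 CPM in control DC, Ndrg2-KO DC and blank hydrogel wounds, ratios of 0.53 (0.50 to 0.56) and -0.06 (-0.10 to -0.03). Tlr2 read 246, 335 and 412 CPM, ratios of 0.44 and 0.74. Both genes stayed under 2-fold. With Ndrg2-KO DCs the ratios of Tlr1, Tlr4, Tlr6, Tlr3, Tlr7, Tlr8 and Tlr13 were 0.38, 0.41, 0.77, -0.30, -0.55, -0.40 and 0.00. With the blank hydrogel they were 0.12, 0.22, 0.45, 0.15, -0.42, -0.39 and 0.34. None was called. Tlr9, at -1.0 (-1.86 to -0.14) on 26 against 24 UMIs, stood at the 2-fold line, the single call of 10 members beside 4.48% of all genes with Ndrg2-KO DCs, and it dropped under that line with doublets left out or another scaling. With the blank hydrogel 0 of 9 were called beside 2.99%. Apart from Tlr9, the wound macrophages and monocytes thus held their member levels within 2-fold. With 30 components Tlr6 with Ndrg2-KO DCs went to 1.04, the single call there, in place of Tlr9. No cluster was named monocyte-like at that setting, so the value is of macrophage-like cells alone.

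Fibroblast-like cells gave 1 call in each comparison, of 4 members measured. Cd14 read 26.8, 101 and 51.7 CPM in control DC, Ndrg2-KO DC and blank hydrogel wounds, and was called with Ndrg2-KO DCs at 1.91 (1.74 to 2.07), beside 5.36% of all genes, but not with the blank hydrogel at 0.95 (0.75 to 1.14), which went to 1.03 with doublets left out and 1.19 as a mean over cells. T cell-like cells of the same wounds read 45.1, 438 and 155 CPM of Cd14, in the same order and above the fibroblast-like cells in each. The fibroblast Cd14 ratio therefore cannot be told apart from the Cd14 background of the libraries, which moved in the same direction and by more. Tlr2 was called with the blank hydrogel at 1.01 (0.69 to 1.33), beside 3.31% of all genes, with 19.5 CPM, and gave 0.90 with Ndrg2-KO DCs. This call sat at the 2-fold line and was lost with doublets left out. T cell-like cells read 9.25, 40.6 and 10.8 CPM of Tlr2 in the same order of wounds, and in blank hydrogel wounds their interval held the fibroblast level, so this call too cannot be told apart from background. Tlr4 and Tlr3 gave -0.42 and 0.17 with Ndrg2-KO DCs, and 0.16 and 0.19 with the blank hydrogel, all under 2-fold, and the remaining members had too few UMIs here to be measured.

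After wound cells were drawn down to 1000 UMIs, Cd14 was seen in 90.7% of neutrophil-like, 71.4% of monocyte-like and 57.3% of macrophage-like cells. It was seen in 3.76% of fibroblast-like cells (31.1% undrawn, at a median of 27994 UMIs) and 5.19% of T cell-like cells (11.8% undrawn, at a median of 5265 UMIs). The fibroblast share was thus above the T cell-like one undrawn but not drawn. Drawing keeps a smaller part of the UMIs of a deeper cell, so these shares cannot decide whether fibroblast-like cells stood above background. Erythroid cell-like cells gave 50.7%. Tlr6 was seen in 13.5% of neutrophil-like and 1.08% of T cell-like cells, and Tlr2 in 32.9% of monocyte-like and 1.30% of T cell-like cells. Those myeloid shares stood above the T cell-like ones. Tlr7, seen in 4.12% of macrophage-like cells, compared with 0.433% of T cell-like cells. Over all cells at least 1 member was seen in 49.7%, 75.3% and 70.2% of control DC, Ndrg2-KO DC and blank hydrogel wound cells (76.5%, 89.8% and 88.9% undrawn), with 25, 95 and 65 shallower cells left out. T cell-like cells alone gave 1.56%, 11.1% and 10.1%, lowest in the control DC library as well.

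The stretches just before the starts of 3 genes are printed because Tlr1 was the sole member called higher in both altered cultures, and Tlr8 and Tlr13 had the widest member ratios between Ndrg2-KO and VD3-stimulated DCs. Each lies outside the annotated gene, directly 5′ of its start, in the RefSeq GRCm38.p6 genome: chr5:64933564-64933808, minus strand, for Tlr1, chrX:167264330-167264579, minus strand, for Tlr8, and chrX:106143025-106143203, plus strand, for Tlr13. From the 250 bases before the RefSeq start, 5 of Tlr1 and 71 of Tlr13 that lie inside the GENCODE gene were left out. Capitals mark GAGGAAGT, a form of the site that the myeloid factor PU.1 binds, found on either strand in 2.44% of all 32851 promoters. Of these 3 genes Tlr1 alone held this exact sequence. It began 23 bases before the RefSeq start, a count that includes the 5 bases left out, and the other Tlr1 promoter searched held none. Shorter or inexact forms were not searched. The Tlr13 stretch holds gaggaagg, and the Tlr8 stretch holds ttcctc, which is gaggaa on the other strand. So no difference between these genes in PU.1 sites was read. Tlr2, called lower in both, is not printed, and its promoter held no match to any motif searched. An interferon-stimulated element and a kappa B site, found in 2.98% and 1.41% of all promoters, were also searched. The first had 2 matches in a Tlr6 promoter and the second 1 in that of Tlr3, and the printed stretches held neither. The promoters of Cd14, Tlr4 and Tlr7 were not searched. A match describes the sequence alone, and whether any factor binds there was not measured.
Tlr1: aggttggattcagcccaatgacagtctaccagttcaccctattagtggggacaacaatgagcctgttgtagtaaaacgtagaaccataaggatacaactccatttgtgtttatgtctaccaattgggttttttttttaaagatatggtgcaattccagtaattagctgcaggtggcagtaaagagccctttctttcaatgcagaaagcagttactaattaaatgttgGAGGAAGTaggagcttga
Tlr8: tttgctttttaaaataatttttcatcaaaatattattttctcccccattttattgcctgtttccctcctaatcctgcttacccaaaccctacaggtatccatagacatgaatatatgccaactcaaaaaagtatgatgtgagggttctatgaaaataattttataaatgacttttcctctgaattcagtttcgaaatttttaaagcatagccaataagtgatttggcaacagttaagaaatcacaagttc
Tlr13: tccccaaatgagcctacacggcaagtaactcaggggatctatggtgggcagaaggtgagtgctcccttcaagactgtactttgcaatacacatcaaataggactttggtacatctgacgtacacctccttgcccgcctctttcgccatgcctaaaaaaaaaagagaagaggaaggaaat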

How the data were processed

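The UMI counts were used as the authors deposited them, made with Cell Ranger 3.1.0 (DC cultures) and 6.0.0 (wounds) per the file headers. The submitters' notes name mm9 while the paper's methods name mm10, so genes were matched by Ensembl identifier, and positions are from GENCODE M21 on GRCm38. A cell was kept if 300 genes or more were seen in it, its UMIs stayed below 100000, and less than 10% of them were mitochondrial. The members and the pathway lists were chosen with earlier results of these data known, and genes of those lists are named where they were at least 2-fold apart. Cells were clustered in Seurat 5.3.0 (15 components, resolution 0.5) without the members, and named by marker genes. UMIs were summed per library and class. Scrublet (scanpy 1.11.5) marked 0.0138%, 0% and 0.0125% of untreated, VD3-stimulated and Ndrg2-KO cells as doublets. In control DC, Ndrg2-KO DC and blank hydrogel wounds it marked 0.873%, 0.0352% and 0%. These marks were not relied on, so the alternative without doublets leaves out the 6% with the highest scores. R 4.3.3, Python 3.11.15, numpy 2.4.6, pandas 2.3.3, scipy 1.17.1 and matplotlib 3.10.9 were used. Alternatives covered filters, scaling, means over cells, clustering, drawing depth, and, chosen after seeing the data, single classes and single pathway genes. Shares of cells depend on depth, and CPM on the other genes of a library.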

Additional observations from a re-analysis of the deposited data

Results flagged for a closer look

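Some members had ratios of opposite sign in different wound classes, which put them here. The differences between classes were not tested, and none of these values reached 2-fold. In Ndrg2-KO DC against control DC wounds, the log2 ratio of Tlr1 was -0.66 in neutrophil-like and 0.38 in macrophage- or monocyte-like cells. Tlr4 gave -0.65 in neutrophil-like, 0.41 in macrophage- or monocyte-like and -0.42 in fibroblast-like cells, and Tlr6 gave -0.46 in neutrophil-like and 0.77 in macrophage- or monocyte-like cells. Tlr2, also a surface receptor, gave 0.07 and 0.44, the same sign in both. In blank hydrogel against control DC wounds, Tlr4 gave -0.59 in neutrophil-like and 0.22 in macrophage- or monocyte-like cells, and Tlr6 gave -0.44 and 0.45. Cd14 gave -0.22 in neutrophil-like, -0.063 in macrophage- or monocyte-like and 0.95 in fibroblast-like cells. Both comparisons share the control DC library, so a value particular to that library enters each of them.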

How the results depend on the processing

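Members at least 2-fold apart were counted again under each alternative, and the cause was not tested for any of these moves. VD3-stimulated against untreated DCs had 4, 1 with under 5% mitochondrial UMIs, 1 as a mean over cells and 2 in mature DC-like cells only. Ndrg2-KO against untreated DCs had 6, 7 with under 5% mitochondrial UMIs and 2 in mature DC-like cells only. A mean over cells, or leaving out mitochondrial and ribosomal genes, gave 5 there. Ndrg2-KO against VD3-stimulated DCs had 5, 7 with under 5% mitochondrial UMIs, 4 without mitochondrial and ribosomal genes and 3 in mature DC-like cells only. Leaving out neutrophil-like clusters gave counts of 4, 6 and 5. All cells of Ndrg2-KO DC wounds had 3, and 4 with median-ratio scaling. They had 2 with 300 UMIs in place of 300 genes, all barcodes, doublets left out or a mean over cells. In Ndrg2-KO DC wounds, neutrophil-like cells had 1, and 0 with at least 200 UMIs needed to measure a gene, and macrophage- or monocyte-like cells had 1, and 0 with doublets left out, median-ratio scaling, a mean over cells, mitochondrial and ribosomal genes left out, at least 200 UMIs needed, or resolution 1.0. In blank hydrogel wounds, all cells had 3, and 1 as a mean over cells, neutrophil-like cells had 1, and 0 as a mean over cells, and fibroblast-like cells had 1, then 0 with median-ratio scaling, 2 as a mean over cells and 0 with 30 components. The share of cells with any member was 24.4%, 18.8%, 36.9%, 49.7%, 75.3% and 70.2%, from untreated, VD3-stimulated and Ndrg2-KO DCs to the control DC, Ndrg2-KO DC and blank hydrogel wounds. It was 57.3%, 45.9%, 79.1%, 76.5%, 89.8% and 88.9% undrawn, and 38.4%, 28.4%, 55.5%, 57.5%, 81.4% and 77.8% drawn to 4000 (DC) or 2000 (wound) UMIs. No ratio turned direction, in 275 of 275 alternative values of ratios past 2-fold. No paired analysis was possible because each group had 1 library.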

Other observations

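Over the 14 wound clusters, which share libraries and so are not separate observations, the gene whose log2 level followed that of Cd14 most closely among 11621 genes was the chemokine receptor gene Ccr1 (Pearson r 0.996), then Il1rn (0.985), the gene of the interleukin-1 receptor antagonist. Tlr13 ran beside the hexokinase gene Hk3 (0.991) and Tlr6 beside E230032D23Rik (0.986) and the formyl peptide receptor gene Fpr1 (0.981). Tlr2 ran beside Pla2g7 (0.981), and Tlr7, at 0.927 with Vps11, had no gene as close. Among members the pair Cd14 and Tlr13 gave 0.949, and Tlr6 and Tlr3 the lowest value, -0.650.

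The values rest on 1 library per condition, so a difference between conditions cannot be told apart from one between libraries. Nucleofection and editing differ together in the Ndrg2-KO cultures, and the culture classes were mostly of 1 library each. Transcript levels of these receptors say nothing of their protein or of the response to a ligand. In wounds, Cd14 background in T cell-like cells differed between libraries, so low Cd14 levels of other classes were not told apart from background. Seeded DCs cannot be told apart from cells of the host.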
